A study of Rattus norvegicus with 30 samples.

Results

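Ccn2 (also called Ctgf) and a small set of genes known as targets or regulators of YAP and TGF-beta signalling were followed in primary rat hepatocytes exposed to the PPAR-alpha agonist clofibrate. Ccn2 was chosen by its own measured values, since its signal fell with clofibrate in these same arrays, so its changes against DMSO and between doses are given as description without a test. The set lists 8 genes, namely Ccn2, Ccn1, Ankrd1, Thbs1, Tgfb1, Smad7, Tgfbi and Axl. Probe sets were taken where the platform's gene table gives exactly 1 symbol and that symbol is one of these. This found 10 probe sets of 7 genes among 31042 probe sets and 14217 named genes, while Thbs1 was not analysed here. The brightest probe set stands for each gene. Of the 7 genes, 5 lay above the filter on dim probe sets, the 40th percentile of mean log2 signal over the 30 arrays, which is a signal of 255, and Ankrd1 and Tgfb1 lay below it.

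The cells were frozen hepatocytes of male Sprague Dawley rats, plated on collagen under a Matrigel overlay and dosed on day 3 of culture. They received 60 uM clofibrate, 1000 uM clofibrate or the vehicle, 1% DMSO, and RNA was taken after 24 or 48 h. Each of the 6 groups of dose and time held 5 separately dosed cultures, each hybridised to 1 Affymetrix array. No label ties a culture to its own animal, so each p-value here rests on how far cultures differ from one another.

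The matricellular proteins Ccn2 and Ccn1 are secreted into the extracellular matrix, and both genes are standard readouts of YAP and TAZ, coactivators that bind DNA through TEAD factors. The Hippo kinases phosphorylate YAP and TAZ and so keep them out of the nucleus. TGF-beta acts through receptor kinases that phosphorylate Smad2 and Smad3, and Ccn2, Tgfbi and Smad7 are among its known target genes. In liver, Hippo signalling is known for the control of organ size, and TGF-beta and Ccn2 for their part in fibrosis.

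The promoter sequences of Ccn2 and Ccn1 are shown because both genes were lower at 1000 uM clofibrate and both are described as TEAD targets. Each line gives the 250 bases before the annotated start in the RefSeq table of GRCr8, in the direction of the gene, for Ccn2 at chr1:22624615-22624864 on the minus strand and for Ccn1 at chr2:237225690-237225939 on the minus strand. Capitals mark GGAATG, the core of the TEAD motif, or its reverse complement CATTCC.
Ccn2: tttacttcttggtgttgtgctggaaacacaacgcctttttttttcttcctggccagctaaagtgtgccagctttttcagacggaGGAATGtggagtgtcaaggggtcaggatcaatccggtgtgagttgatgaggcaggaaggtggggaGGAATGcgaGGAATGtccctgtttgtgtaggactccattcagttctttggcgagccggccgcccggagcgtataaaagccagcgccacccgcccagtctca
Ccn1: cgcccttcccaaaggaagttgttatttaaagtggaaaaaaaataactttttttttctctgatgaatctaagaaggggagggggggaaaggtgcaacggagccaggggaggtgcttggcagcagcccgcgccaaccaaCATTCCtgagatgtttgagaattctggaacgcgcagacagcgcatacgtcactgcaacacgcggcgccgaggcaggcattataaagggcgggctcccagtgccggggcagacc
The Ccn2 window held 3 matches, at bases 166 to 161, 101 to 96 and 92 to 87 before the start, and the Ccn1 window held 1, at bases 113 to 108. Both strands were searched. Among 27457 promoters of the same length, 11.8% held at least 1 match and 25 promoters, or 0.0911%, held 3 or more. The windows of Tgfb1, Smad7, Tgfbi and Axl held 0. The Smad motif CAGAC, also searched on both strands, was found 1 time in Ccn2, 2 times in Ccn1 and 1 time in Axl, and 42.8% of all promoters held it. No TEAD match overlapped a Smad match in these windows. Of the 22 genes of the YAP/TAZ-TEAD list described further on, 15 had a promoter in the table and 5 of them held a TEAD match, namely Ccn2, Ccn1, Amotl2, Ptpn14 and Nuak2. These matches describe letters in a window and are no measure of binding.

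Ccn2 fell in steps with dose at both times. At 24 h its signals were 8058, 8329, 8192, 8642 and 8484 in DMSO, then 3392, 2961, 2665, 2793 and 2633 at 60 uM, and 607, 610, 616, 444 and 429 at 1000 uM. The 3 doses did not overlap, and every culture at 1000 uM lay below every culture at 60 uM. At 48 h the signals were 12048, 10840, 10701.5, 11799.8 and 9881 in DMSO, 3541, 3492, 3859, 3744 and 3601 at 60 uM, and 671, 503, 660, 727 and 599 at 1000 uM. The doses were separate at 48 h too.

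On the log2 scale, the difference of 60 uM clofibrate from DMSO was -1.54 ± 0.10 (standard error of the fit, n = 5 arrays per group) at 24 h and -1.60 ± 0.10 at 48 h. That of 1000 uM from DMSO was -3.96 ± 0.10 at 24 h and -4.14 ± 0.10 at 48 h. As levels, cultures at 60 uM held 34.5% of the DMSO signal at 24 h and 33.1% at 48 h, and cultures at 1000 uM held 6.40% and 5.69%. The step from 60 uM to 1000 uM was -2.43 at 24 h and -2.54 at 48 h. Subtracting the 24 h effect from the 48 h effect gave -0.06 for 60 uM, with a 95% interval of -0.34 to 0.22, and -0.17 for 1000 uM, with an interval of -0.45 to 0.11. Ordered from the lowest, the change of Ccn2 was number 1 of 18625 probe sets at 1000 uM and 24 h, number 2 at 1000 uM and 48 h, number 3 at 60 uM and 48 h and number 4 at 60 uM and 24 h. These ranks describe why the gene was picked.

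The drift of the vehicle culture, DMSO at 48 h against 24 h, was the one change of Ccn2 that did not enter its choice directly, although it uses the same DMSO arrays. Ccn2 averaged 11054 ± 879 in DMSO at 48 h and 8341 ± 231 in DMSO at 24 h (SD, n = 5 each). It rose by 0.40 ± 0.10 on the log2 scale (limma adjusted p = 0.00646), with every 48 h culture above every 24 h culture. In this comparison 6.94% of all probe sets passed in either direction, and 3.88% of all probe sets were higher. Of Ccn1, Tgfbi, Axl and Smad7, 0 passed there. In the order of levels over the 6 groups, DMSO at 48 h stood first, followed by DMSO at 24 h, 60 uM at 48 h and 60 uM at 24 h, with no overlap between neighbours. The groups at 1000 uM stood last, and their ranges, 503 to 727 at 48 h and 429 to 616 at 24 h, overlapped.

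**Figure D1:**
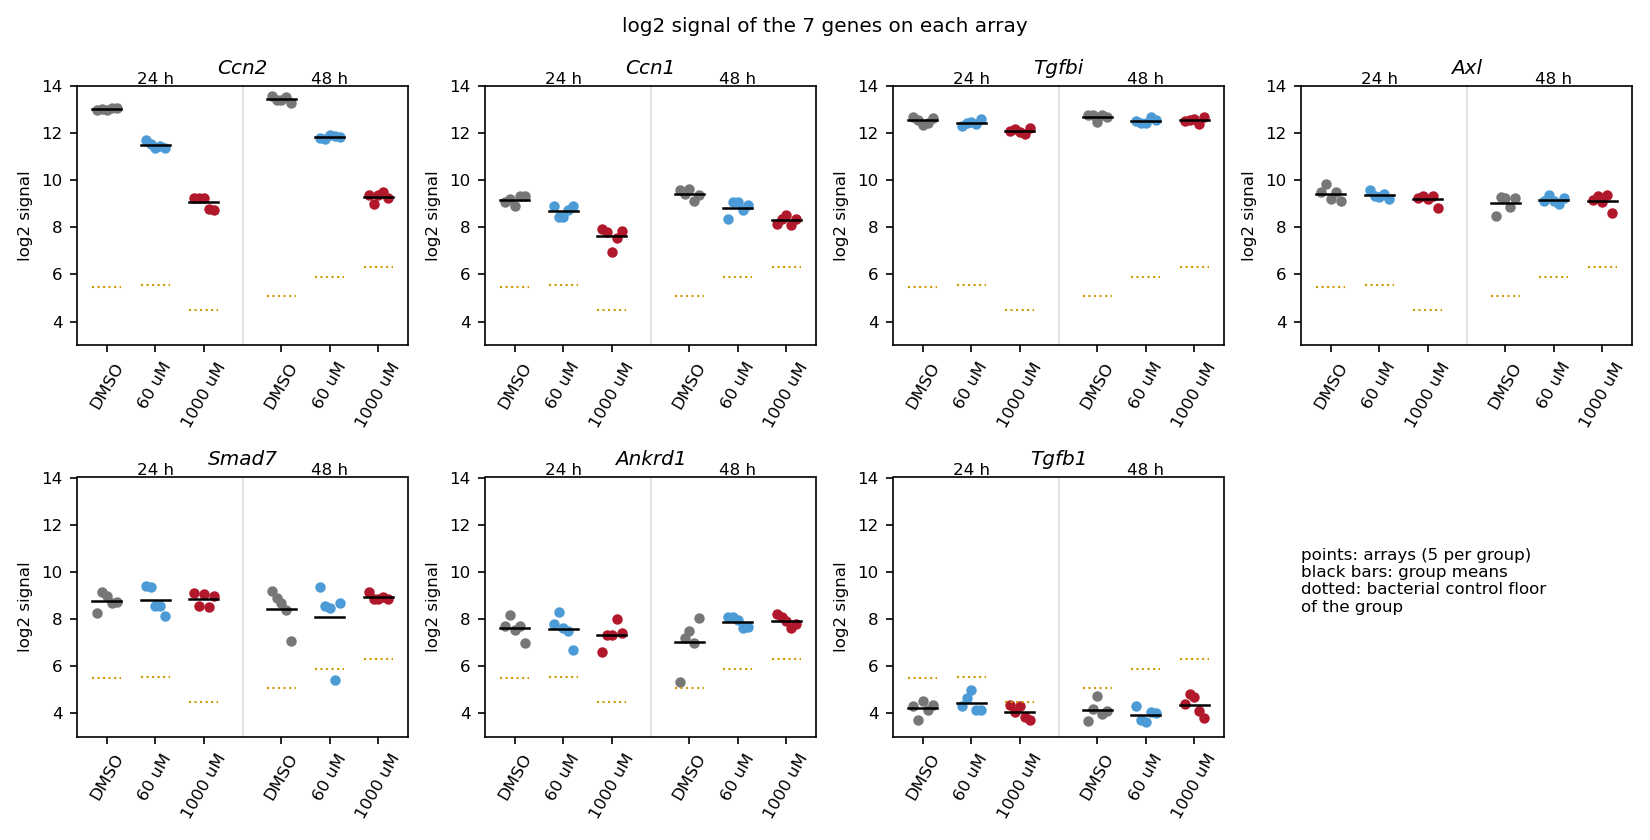
The log2 signal on the y axis is plotted for the 7 genes on each of the 30 arrays, with the groups in order of dose within 24 h and 48 h on the x axis. Points are arrays, black bars are group means and dotted lines are the floor of each group set by bacterial control probe sets. The Ccn2 signals of DMSO, 60 uM and 1000 uM do not overlap at either time, and all Tgfb1 group means lie under the floor.

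Ccn1, also called Cyr61, is the closest relative of Ccn2 in the set. Its signals at 24 h were 536, 585, 482, 641 and 636 in DMSO, then 480, 347, 343, 423 and 477 at 60 uM, and 242, 223, 125, 188 and 228 at 1000 uM. Every culture at 1000 uM lay below every DMSO and 60 uM culture. The 60 uM cultures also lay below all DMSO cultures, though narrowly, the closest signals being 480 and 482. At 48 h the signals were 759, 686, 786, 551 and 671 in DMSO, 328, 546, 539, 425 and 494 at 60 uM, and 285, 327, 363, 274 and 329 at 1000 uM. At this time 60 uM and 1000 uM overlapped, through the 60 uM culture at 328, while both lay below DMSO.

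At 1000 uM Ccn1 fell by 1.55 ± 0.18 on the log2 scale at 24 h (limma adjusted p = 1.48e-08), to 201 ± 46.9 at 1000 uM, against 576 ± 67.7 in DMSO. It also fell at 48 h, by 1.13 ± 0.18 (limma adjusted p = 3.53e-06), to 315 ± 36.4 at 1000 uM, against 691 ± 91.8 in DMSO. At 60 uM and 24 h its difference from DMSO was -0.48 ± 0.18, which did not pass (limma adjusted p = 0.111). The 95% interval of that difference, not adjusted for the number of probe sets, was -0.84 to -0.12. At 60 uM and 48 h it fell by 0.58 ± 0.18 (limma adjusted p = 0.0328). That call was lost when any of 6 single arrays was left out, replicates 1 and 4 of 60 uM and replicates 1, 2, 3 and 5 of DMSO at 48 h, with adjusted p up to 0.123. Between the doses, Ccn1 was lower at 1000 uM than at 60 uM, with a log2 difference of -1.06 at 24 h (limma adjusted p = 2.54e-05) and -0.55 at 48 h (limma adjusted p = 0.0202). The 48 h step was lost without replicate 4 of 1000 uM, replicate 2 of 60 uM or replicate 3 of 60 uM, with adjusted p of 0.0534, 0.0616 and 0.0594.

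The change of Ccn1 at 1000 uM was smaller at 48 h by 0.42 ± 0.25 on the log2 scale, a difference of effects that did not pass (limma adjusted p = 0.375). Set side by side at 1000 uM, the log2 changes were -1.55 for Ccn1 and -3.96 for Ccn2 at 24 h, and -1.13 for Ccn1 and -4.14 for Ccn2 at 48 h. No test was made between the 2 genes.

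Tgfbi encodes a secreted adhesion protein that TGF-beta induces. Its signals at 24 h were 4327, 4559, 4259, 4014 and 4802 at 1000 uM, against 6643, 6093, 5234, 5445 and 6403 in DMSO. It fell by 0.44 ± 0.07 on the log2 scale (limma adjusted p = 6.84e-06), with no overlap between these groups. At 60 uM and 24 h its signal ranged from 5084 to 6119, and the difference from DMSO of -0.11 ± 0.07 did not pass (limma adjusted p = 0.475). At 24 h it was lower at 1000 uM than at 60 uM, with a difference of -0.33 (limma adjusted p = 0.000674).

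At 48 h Tgfbi ranged from 5458 to 6489 at 60 uM and from 5337 to 6616 at 1000 uM, against 5755 to 7016 in DMSO, so all 3 doses overlapped. Neither the difference of 60 uM, -0.17 ± 0.07 (limma adjusted p = 0.145), nor that of 1000 uM, -0.15 ± 0.07 (limma adjusted p = 0.0871), passed. The 1000 uM effect at 48 h minus that at 24 h was 0.29 ± 0.10 (limma adjusted p = 0.0726). That value passed when replicate 5 of 1000 uM or replicate 3 or 4 of DMSO at 24 h, or replicate 4 of 1000 uM at 48 h, was left out, with adjusted p of 0.0304 to 0.0497. The 60 uM difference at 48 h passed without replicate 3 of DMSO, and the 1000 uM difference at 48 h without that array or without replicate 5 of 1000 uM, with adjusted p of 0.0472, 0.0233 and 0.0392. Both falls of Tgfbi at 1000 uM and 24 h, against DMSO and against 60 uM, were lost when arrays were scaled to the spiked-in poly-A controls (limma adjusted p = 0.13 and 0.183).

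**Figure D2:**
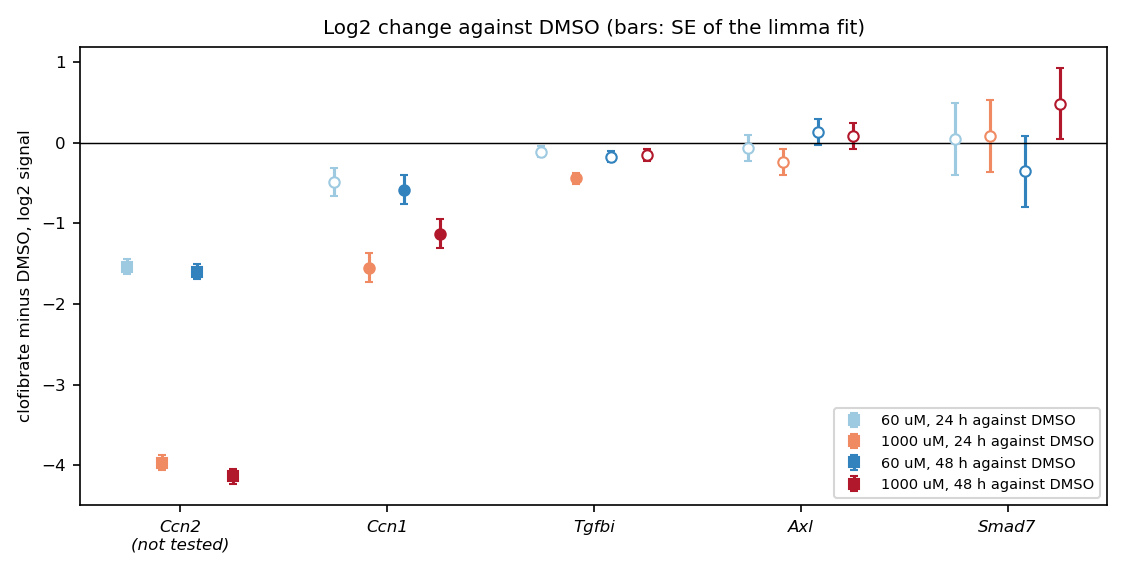
Log2 change of clofibrate against DMSO on the y axis for the 5 genes above the filter, with bars for the standard error of the limma fit. Filled circles passed at an adjusted p of 0.05, open circles did not, and the filled squares of Ccn2 were not tested. Ccn2 lies at -1.54 to -4.14, Ccn1 at -0.48 to -1.55 and Tgfbi at -0.11 to -0.44, while Axl and Smad7 passed in no comparison.

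Axl is a receptor tyrosine kinase and a described YAP target. Its signal ranged from 594 to 763 at 60 uM and from 446 to 652 at 1000 uM at 24 h, against 551 to 911 in DMSO. At 48 h it ranged from 505 to 659 at 60 uM and from 387 to 665 at 1000 uM, against 357 to 616 in DMSO. The ranges of the 3 doses overlapped at both times, and Axl passed in none of the 9 comparisons made. The widest change against DMSO was at 1000 uM and 24 h, -0.24, with a 95% interval of -0.57 to 0.09.

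Smad7 encodes an inhibitory Smad that TGF-beta induces and that blocks the receptors. Its brightest probe set ranged from 277 to 682 at 60 uM and from 362 to 551 at 1000 uM at 24 h, against 301 to 567 in DMSO. At 48 h it ranged from 42.4 to 644 at 60 uM and from 454 to 560 at 1000 uM, against 132 to 588 in DMSO. The groups overlapped throughout and 0 of 9 comparisons passed. The change at 1000 uM was 0.09 with a 95% interval of -0.82 to 0.99 at 24 h and 0.49 with an interval of -0.42 to 1.39 at 48 h. The other probe sets of Smad7, with mean log2 signals of 6.05 and 7.35, lay below the filter. Tested without the filter, they gave -1.17 and -0.05 at 1000 uM and 24 h and did not pass (limma adjusted p = 0.323 and 0.95).

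Ankrd1, a nuclear ankyrin repeat protein and YAP target, had a mean log2 signal of 7.55, above the floor in all 6 groups but below the filter, so it was not tested. Its signal averaged 203 ± 77.4 at 60 uM and 167 ± 56.3 at 1000 uM at 24 h, against 202 ± 57.8 in DMSO. At 48 h it averaged 236 ± 35.7 at 60 uM and 244 ± 38.0 at 1000 uM, against 151 ± 80.0 in DMSO. The groups overlapped at each time. The floor of a group is the highest mean of 3 bacterial control probe sets whose targets are not in the samples, and it lay between log2 4.48 and 6.31. The second Ankrd1 probe set and the single probe set of Tgfb1, the ligand, lay under it in all 6 groups. Tgfb1 signals ran from 12.2 to 31.4 over the 30 arrays, and no change is given for it.

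Whether the fall of Ccn2 was shared can be read from the 4 genes above the filter other than Ccn2. At 60 uM and 24 h 0 of 4 passed as lower, where 3.14% of all probe sets did. At 1000 uM and 24 h 2 of 4 were lower, Ccn1 and Tgfbi, where 17.4% of all probe sets were. At 48 h Ccn1 alone was lower, 1 of 4 at 60 uM, where 4.43% of probe sets were, and 1 of 4 at 1000 uM, where 22.7% were. Higher calls among the 4 numbered 0 in each of these comparisons. Over all probe sets 3.43% were higher at 60 uM and 11.5% at 1000 uM at 24 h, and 4.62% at 60 uM and 15.2% at 1000 uM at 48 h. Between doses 2 of 4 were lower at 1000 uM at 24 h, where 10.4% of probe sets were, and 1 of 4 at 48 h, where 15.3% were. In the 2 tests of effects that differ between times, 0 of 4 passed, where 0.0859% of probe sets passed for 60 uM and 8.29% for 1000 uM, in either direction. All the comparisons with DMSO at 1 time share its DMSO arrays. Since the 4 genes were listed with earlier results known, these counts describe them.

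The lists that follow were compiled around the pathways, also with earlier results of these arrays known, and are described by counts without the 7 genes above. The shares over all probe sets to read them against are those given for the 4 genes, at 1000 uM 17.4% lower and 11.5% higher at 24 h and 22.7% lower and 15.2% higher at 48 h, and at 60 uM 3.14% lower at 24 h and 4.43% at 48 h. Of the 22 genes of the YAP/TAZ-TEAD list, 17 lay above the filter and 14 remained after Ccn2, Ccn1 and Axl were set aside. At 1000 uM and 24 h 3 of the 14 were lower and 2 higher, and at 48 h 4 were lower and 1 higher. The median change was -0.19 at 24 h and -0.15 at 48 h, against -0.05 and -0.04 over all probe sets. At 60 uM 1 of 14 was lower at 24 h and 2 of 14 at 48 h, with 0 higher. The 24 h count, which is Nt5e, dropped to 0 after median centring or poly-A scaling, with only the groups compared, and without replicate 1, 2 or 3 of 60 uM. Without replicate 5 of DMSO Nt5e was lost too (limma adjusted p = 0.0848). The 48 h count dropped to 0 after poly-A scaling and to 1 with array weights, without replicate 1 or 2 of 60 uM or replicate 1 or 5 of DMSO at 48 h.

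Amotl2, an angiomotin family protein that binds YAP, had signals of 2358 to 3000 at 1000 uM, against 3733 to 5116 in DMSO, at 24 h. It fell by 0.81 ± 0.11 on the log2 scale at 24 h (limma adjusted p = 2.74e-07) and by 1.19 ± 0.11 at 48 h (limma adjusted p = 6.31e-11), with no overlap between these groups at 24 h or at 48 h. Nt5e, the ectonucleotidase CD73, fell by 0.71 ± 0.07 at 24 h and by 0.29 ± 0.07 at 48 h. Lats2, the kinase that phosphorylates YAP, fell by 0.42 at 24 h and by 0.58 at 48 h, and the phosphatase Ptpn14 fell at 48 h by 0.70. Both were named after their values were seen.

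Other genes of this list moved the other way. Nuak2, an AMPK-related kinase, had signals of 1614 to 1952 at 1000 uM, against 808 to 1047 in DMSO, at 24 h, and rose by 0.95 ± 0.12 (limma adjusted p = 1.48e-07). Its rise at 48 h was 0.76 ± 0.12. Gadd45a, a stress response gene, rose by 0.60 ± 0.08 at 24 h, while its difference at 48 h was -0.10 (limma adjusted p = 0.323). The remaining 9 of 14 genes did not pass at 24 h. On arrays scaled to the poly-A controls the median of the list was 0.03 at 24 h and 0.01 at 48 h, with 2 genes lower and 2 higher at 24 h and 2 lower and 1 higher at 48 h, where the median over all probe sets at 1000 uM and 24 h became 0.18. The 48 h fall of Nt5e was lost on that scale (limma adjusted p = 0.352). On the same scale the 2 lower genes at 24 h were Amotl2 and Nt5e, so Lats2 was not among them. At 48 h Amotl2 was 1 of the 2 lower genes, so Lats2 and Ptpn14 did not both pass.

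**Figure D3:**
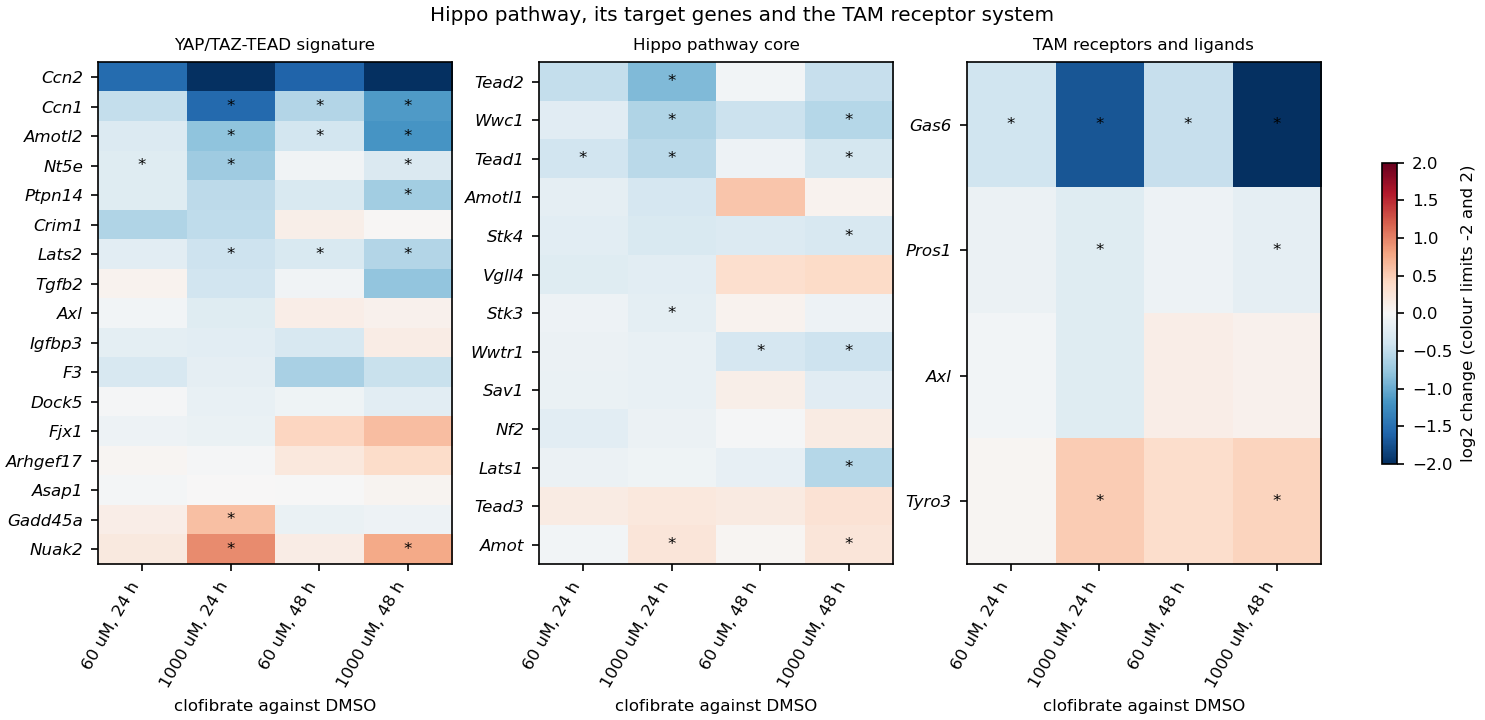
Colour gives the log2 change of clofibrate against DMSO, cut at -2 and 2, for each gene above the filter (rows) in the 4 comparisons (columns), for the YAP/TAZ-TEAD list, the Hippo core and the TAM system. Stars mark an adjusted p under 0.05 in the limma fit, and Ccn2 carries none because it was not tested. Ccn1 and Amotl2 stand beside Ccn2 at the low end, and Nuak2 at the high end rose by 0.95 at 1000 uM and 24 h.

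In the Hippo core, 4 of 13 genes were lower and 1 higher at 1000 uM and 24 h, and 5 lower and 1 higher at 48 h. Tead1, a DNA-binding partner of YAP and TAZ, fell by 0.54 ± 0.07 at 24 h (limma adjusted p = 1.24e-07) and by 0.36 ± 0.07 at 48 h (limma adjusted p = 8.57e-05). Its paralog Tead2 fell by 0.88 ± 0.20 at 24 h (limma adjusted p = 0.000637), and its difference at 48 h was -0.46 ± 0.20 (limma adjusted p = 0.0673). Wwc1, the Kibra scaffold upstream of the kinases, fell by 0.60 at 24 h and by 0.57 at 48 h. The angiomotin Amot rose by 0.25 at both times (limma adjusted p = 0.0406 and 0.0324). Its call was lost with only the groups compared at both times, with no filter at 24 h and with array weights at 48 h. It was also lost at 24 h without replicate 1, 2 or 5 of 1000 uM or replicate 2, 4 or 5 of DMSO, with adjusted p up to 0.126. At 48 h it was lost without replicate 1, 3, 4 or 5 of 1000 uM or replicate 1 or 5 of DMSO, with adjusted p up to 0.131. Scaled to the poly-A controls, 2 of 13 genes were lower and 2 higher at 24 h, and 1 lower and 4 higher at 48 h. On that scale Wwc1 did not pass at 24 h or 48 h (limma adjusted p = 0.11 and 0.0692), nor Tead1 at 48 h (limma adjusted p = 0.111).

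On the TGF-beta side, of 6 genes of ligands, latency and activation, 0 passed at 1000 uM and 24 h and 1 at 48 h. The 24 h count became 1 higher after median centring or quantile normalization and 2 higher after poly-A scaling. The 48 h call was Ltbp1, a latent TGF-beta binding protein, which rose by 0.74 ± 0.19 (limma adjusted p = 0.00259). The ligand gene Tgfb2 gave -0.38 ± 0.41 at 24 h and -0.79 ± 0.41 at 48 h, neither of which passed. A single lower call appeared at 48 h with no filter, or without replicate 1 of 1000 uM at 24 h, replicate 5 of 1000 uM at 48 h or replicate 2 of DMSO at 48 h. Of 9 receptor and Smad genes, 2 were lower at 24 h, and 3 were lower and 1 higher at 48 h. On arrays scaled to the poly-A controls the balance turned, with 1 lower and 2 higher at each time, after median centring it was 1 and 1 at 24 h, and quantile normalization added 1 higher at 24 h. Smad1, a Smad of the BMP branch, fell by 0.47 ± 0.04 at 24 h (limma adjusted p = 2.98e-10) and by 0.56 ± 0.04 at 48 h. Acvr1, a BMP type I receptor, fell by 0.33 at 24 h and by 0.43 at 48 h, and its 24 h call was lost without replicate 1 of DMSO (limma adjusted p = 0.0579) and after median centring (limma adjusted p = 0.0681). Scaled to the poly-A controls, both calls of Acvr1 were lost (limma adjusted p = 0.563 and 0.0769). Without that array, or without replicate 5 of DMSO, 1 receptor or Smad gene was higher at 24 h. The coreceptor Eng rose by 0.69 at 48 h (limma adjusted p = 0.000394).

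Known TGF-beta response genes other than Smad7 and Tgfbi split in direction. Of 13, 4 were higher and 4 lower at 1000 uM and 24 h, and 2 were higher and 5 lower at 48 h. On the poly-A scale 5 were higher and 2 lower at 24 h. Id1, a helix-loop-helix inhibitor best known as a BMP target, had signals of 3041 to 3525 at 1000 uM, against 1283 to 1647 in DMSO, at 24 h. It rose by 1.17 ± 0.09 at 24 h (limma adjusted p = 2.36e-12), by 0.79 ± 0.09 at 1000 uM and 48 h, and by 0.50 and 0.42 at 60 uM. Skil, a corepressor that binds Smads and is induced by TGF-beta, fell at 1000 uM by 0.45 ± 0.07 at 24 h and by 0.69 ± 0.07 at 48 h, the first of which was lost under the poly-A scaling (limma adjusted p = 0.0952). Bambi, a decoy receptor, fell by 0.60 at 24 h and by 0.51 at 48 h, and the AP-1 gene Junb fell by 0.96 at 24 h and by 0.81 at 48 h.

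Among matrix and fibrosis genes, 2 of 12 were lower and 1 higher at 1000 uM at each time, no larger a share than over all probe sets, and the 2 lower ones were also lower at 60 uM. Fn1, fibronectin, had signals of 15612 to 18704 at 1000 uM and 28220 to 34310 at 60 uM, against 44230 to 49204 in DMSO, at 24 h. It fell at 1000 uM by 1.44 ± 0.05 at 24 h (limma adjusted p = 3.74e-21). At 1000 uM and 48 h Fn1 fell by 2.21 ± 0.05 (limma adjusted p = 2.86e-26), and at 60 uM by 0.60 at 24 h and by 0.68 at 48 h. Lox, the collagen and elastin cross-linking enzyme, fell at 1000 uM by 0.75 ± 0.09 at 24 h and by 1.53 ± 0.09 at 48 h, and at 60 uM by 0.53 and 0.67. Sparc, a matricellular protein, rose at 1000 uM by 0.58 at 24 h and by 0.33 at 48 h, the second of which was lost without replicate 1 or 4 of 1000 uM or replicate 1 or 2 of DMSO, with adjusted p of 0.0711 to 0.0942. Without replicate 4 of DMSO 2 genes were higher at 48 h. The median of the list was -0.13 at 24 h and 0.01 at 48 h. Of 5 other genes of the CCN and thrombospondin families, 0 passed at either dose or time, and Ccn3 gave -0.25 ± 0.16 at 1000 uM and 24 h.

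Gas6, Pros1 and Tyro3, of the list of TAM receptors and ligands that also holds Axl, passed at 1000 uM although Axl did not. Gas6, the ligand of Axl, Tyro3 and Mertk, had signals of 1953 to 2345 at 1000 uM, against 6266 to 8135 in DMSO, at 24 h. It fell by 1.72 ± 0.10 at 24 h (limma adjusted p = 4.15e-15) and by 2.07 ± 0.10 at 48 h (limma adjusted p = 1.95e-17), and at 60 uM by 0.39 and 0.47. The 60 uM call at 24 h was lost without replicate 2 of DMSO (limma adjusted p = 0.0656), after median centring (limma adjusted p = 0.0593) and after poly-A scaling (limma adjusted p = 0.198). Pros1, protein S, fell at 1000 uM by 0.24 at 24 h and by 0.18 at 48 h, both lost on arrays scaled to the poly-A controls (limma adjusted p = 0.929 and 0.876). The receptor Tyro3 rose by 0.50 at 24 h and by 0.44 at 48 h, and the 48 h call was lost without replicate 3 of 1000 uM or replicate 1 of DMSO (limma adjusted p = 0.0613 and 0.0588).

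Targets of SRF and its coactivators MRTF, which respond to the actin state of the cell and share several genes with YAP, were also counted. At 1000 uM 12 of 17 were lower and 0 higher at 24 h (1 higher without replicate 5 of DMSO or after poly-A scaling), and 12 were lower and 1 higher at 48 h. The medians were -0.45 and -0.53, against -0.05 and -0.04 over all probe sets. At 60 uM 6 of 17 were lower at 24 h and 5 at 48 h, the last count dropping to 2 with no filter, without the intensity trend or with only the groups compared, to 3 with array weights or without replicate 1, 3, 4 or 5 of 60 uM and to 2 without replicate 1 or 2 of DMSO. The gene Acta1, skeletal alpha-actin, fell at 1000 uM by 1.34 ± 0.14 at 24 h and by 1.09 ± 0.14 at 48 h, and at 60 uM by 0.97 and 0.64. Flna, filamin A, fell by 1.13 at 24 h and by 1.17 at 48 h, Tagln2 by 1.05 and 1.31, and the early growth response gene Egr1 by 0.98 and 0.86. On arrays scaled to the poly-A controls 7 of 17 were lower at 24 h and 10 at 48 h at 1000 uM, and 2 at each time at 60 uM. Median centring gave 4 at 24 h and 3 at 48 h at 60 uM.

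**Figure D4:**
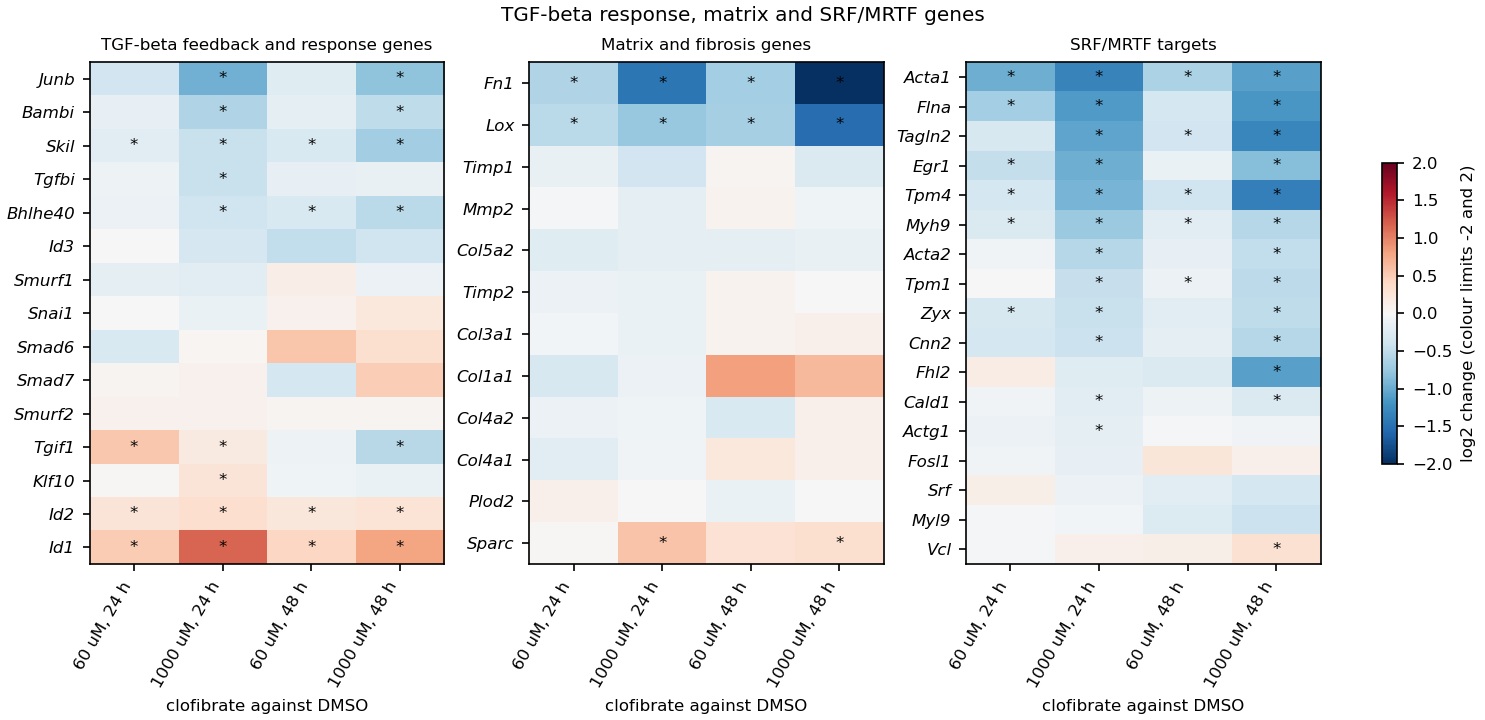
Colour gives the log2 change of clofibrate against DMSO, cut at -2 and 2, for genes above the filter (rows) in the 4 comparisons (columns), for TGF-beta response genes, matrix genes and SRF/MRTF targets. Stars mark an adjusted p under 0.05 in the limma fit. Id1 rose while Junb, Bambi and Skil fell at 1000 uM, Fn1 and Lox are the 2 matrix genes that were lower, and 12 of 17 SRF/MRTF targets were lower at 1000 uM at each time.

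For scale, all 8 measured PPAR-alpha target genes of a reference list rose in each of the 4 comparisons with DMSO, or 7 of 8 at 60 uM and 48 h after median centring or poly-A scaling. At 1000 uM and 24 h the median change of the 8 genes was 2.89, with a range of 0.47 to 10.5. The median was smaller in size than the -3.96 of Ccn2. Ehhadh, a peroxisomal beta-oxidation enzyme, rose by 4.98 there, which was larger in size.

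The genes whose log2 signal ran most like that of Ccn2 over the 30 arrays were ranked by Pearson r among 10626 other genes. The arrays fall into 6 groups that share doses and times, so r mostly follows group means, and it is given with no p. The 10 highest were Klf6 (r = 0.987), Myadm, Rnf144b, Lurap1l, Cutc, Cdh1, Ivns1abp, Fam220a, Mgat4b and Ugt2b1 (r = 0.974). Klf6, a zinc finger transcription factor, averaged 3303 at 1000 uM, against 8368 in DMSO, at 24 h. Its log2 changes against DMSO were -0.40 at 60 uM and -1.34 at 1000 uM at 24 h. Cdh1, E-cadherin, changed by -1.24 and Ugt2b1, a glucuronosyltransferase, by -1.57 at 1000 uM and 24 h. In all, 223 genes, or 2.10%, had r above 0.9. Ccn1 had r = 0.882 and stood at number 291, Tgfbi had 0.607 and number 1776, while Axl had 0.09 and Smad7 -0.19. Within groups, after group means were taken off, r of Ccn1 with Ccn2 was -0.09. By Spearman's rho 3 of the 10 genes recurred in the first 10, and by r over the 6 group means 2 did. Of these 10 genes, 7 had a promoter in the RefSeq table and 1 of them, Lurap1l, held GGAATG or CATTCC.

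**Figure D5:**
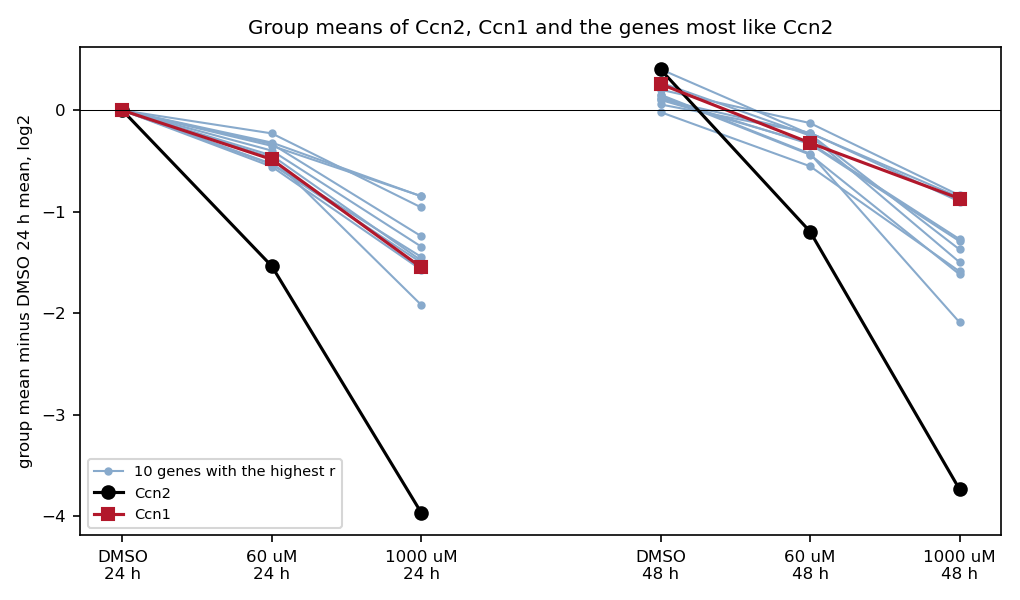
Group mean log2 signal minus that of DMSO at 24 h on the y axis, for Ccn2 (black), Ccn1 (red) and the 10 genes of highest r with Ccn2 (blue), with the groups by dose within each time on the x axis. All lines fall with dose at both times, and Ccn2 reaches the lowest value, -3.96 at 1000 uM and 24 h.

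The labelled cell type was checked against its markers. All 9 hepatocyte markers on the array lay above the floor in all 6 groups, and Alb averaged 77260 to 87492 per group. The summed signal of the 13 stellate cell and fibroblast markers, cells known to express Ccn2, ranged from 4563 to 5503 at 1000 uM, against 4775 to 5952 in DMSO, at 24 h. At 48 h it ranged from 4981 to 5714 at 1000 uM, against 4853 to 6036 in DMSO, so the groups overlapped. Lrat, which defines quiescent stellate cells, lay under the floor in 5 of 6 groups. Of the 13 markers, however, 0 lay under it in all 6 groups, and Col3a1 averaged 924 to 1091 per group. Within that list 1 of 7 genes above the filter was lower at 1000 uM at each time, the smooth muscle actin gene Acta2, which the SRF/MRTF list also holds, and 0 were higher. The sum of 9 Kupffer cell markers was lower at 1000 uM without overlap, 23663 to 25818 at 1000 uM against 27295 to 28914 in DMSO at 24 h, and 21226 to 22538 against 23342 to 27074 at 48 h. Most of that sum is 2 bright genes, Lyz2, which averaged 5080 at 1000 uM and 7584 in DMSO at 24 h, and Cd14, which averaged 14883 and 15930. At 48 h Lyz2 averaged 4198 at 1000 uM and 7598 in DMSO, and Cd14 14529 and 14662. Of the other markers at 48 h, Cd68, Clec4f and Csf1r had higher means at 1000 uM. Those of Cd163, Adgre1, C1qa and C1qb were lower. Of 7 Kupffer markers above the filter 1 was lower at 24 h and 2 at 48 h. The sum of 4 bile duct markers, 7061 to 8077 at 1000 uM against 9815 to 11390 in DMSO at 24 h, is nearly all Epcam, which averaged 7551 at 1000 uM and 10262 in DMSO. The hepatocyte sum was 420557 to 465379 at 1000 uM against 491378 to 547200 in DMSO at 24 h. There 5 of 9 genes were lower and 1 higher, Asgr1, which averaged 13901 at 1000 uM and 10830 in DMSO. Over all probe sets 17.4% were lower and 11.5% higher. At 48 h the sum was 376040 to 397640 at 1000 uM against 440701 to 523506 in DMSO. Of the 9 genes 3 were lower and 2 higher, where 22.7% and 15.2% of all probe sets were. Ahsg averaged 28580.5 at 1000 uM and 67563 in DMSO at 48 h. Of 4 bile duct markers 1, Krt7, lay under the floor in all 6 groups, and of 4 lymphoid markers 1, Cd3d. The other markers of these lists lay above it in at least 1 group. The sum of 6 endothelial markers overlapped between 1000 uM and DMSO at 24 h, 1996 to 2415 against 1934 to 2386. The part of these marker shifts in the falls above was not tested, and in bulk RNA fewer cells of a type and less RNA per cell cannot be told apart. As a sign of RNA quality, group means of the 3'/5' ratio were 2.33 to 2.56 for actin and 1.14 to 1.18 for GAPDH.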

How the data were processed

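Biotin-labelled RNA from 30 cultures was read on 1-colour Affymetrix rat arrays, per the labels. The deposited values are probe set intensity signals on a linear scale, made by the authors with MAS5, per the submitters' processing notes, with no version given in the sources used here. Each array's trimmed mean is 1501, so a change in the amount of RNA in a cell cannot be seen. Precision is limited by the number of arrays.

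Signals were taken to log2 with no constant. The 18625 of 31042 probe sets whose mean log2 signal exceeded its 40th percentile entered 1 limma fit of all 30 arrays (limma 3.58.1, R 4.3.3) with group means and a variance trend on intensity. P-values were adjusted by Benjamini-Hochberg per comparison, with a threshold of 0.05. The 9 comparisons are each dose against DMSO and 1000 uM against 60 uM at each time, DMSO at 48 h against 24 h, and each dose's effect at 48 h minus that at 24 h. Every adjusted p is limma's over all probe sets kept. Groups come from the labels, which give no batch.

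Symbols come from the platform's gene table, with 20826 probe sets of 1 symbol, 436 of several and 9780 of none. Named genes are the members, up to 4 genes per list with the largest change at 1000 uM and 24 h, passing ones first, and the 10 genes most like Ccn2. Lats2, Ptpn14, Alb, Lrat, Krt7 and Cd3d lie outside this rule and were picked with their values in view. The members and lists were chosen with earlier results of these data known. Promoters and their build, GRCr8, are RefSeq's. No build of the array is named, so no probe position is given. Tested on simulated data for 1000 uM against DMSO at 24 h, with 200 of 18625 probe sets changed, the fit recovered 58%, 88%, 96% and 100% of changes of 0.5, 1, 2 and 4 on the log2 scale, with 6 false calls. The simulated noise was independent between arrays and probe sets. In the real comparison 17.4% of probe sets were lower and 11.5% higher, so these figures need not hold there.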

Additional observations from a re-analysis of the deposited data

Results flagged for a closer look

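Within the groups of 5 arrays, the gap of the lowest or highest log2 signal to the next array was divided by the range of the group. An array was marked where this ratio, taken on the log2 scale, exceeded 0.71. Of 42 groups (7 genes by 6 groups) 2 were marked, and chance marks about 1 in 20.

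Smad7 in replicate 4 of 60 uM clofibrate at 48 h had a signal of 42.4, under the floor of 58.7 in that group, while the next lowest array had 351. On the log2 scale the gap was 0.777 of the range. Without this array the log2 difference of 60 uM from DMSO at 48 h was 0.31, against -0.35 with it, and neither passed in the limma fit.

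Axl in replicate 5 of 1000 uM clofibrate at 24 h had a signal of 446, while the next lowest array had 588. On the log2 scale the gap was 0.730 of the range. Axl did not pass in that comparison with or without this array.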

How the results depend on the processing

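The fall of Ccn2 held its direction under every setting run, with log2 changes at 24 h of -4.02 to -3.74 at 1000 uM and -1.60 to -1.41 at 60 uM, and its rise in DMSO passed in all of them. Scaled to the 24 poly-A spike-in control sets, its changes at 1000 uM were -3.74 at 24 h and -3.97 at 48 h. The labels give the groups no shared replicate numbers, but the titles number the arrays so that 5 runs of consecutive numbers hold 1 array of each group. Nothing says what a run shares. Deviations from the group means were correlated between arrays of different groups. Of 75 pairs in the same run 1 had r above 0.1 (median r = 0.00561), and of 300 pairs in other runs 0 did (median r = -0.00266). The best match lay in the array's own run for 12 of 30 arrays, although other-run pairs were more numerous. With the runs as a replicate block, chosen after seeing the data, 1 gene, Tgfbi, in place of 0 passed for the 1000 uM difference of effects between times (limma adjusted p = 0.0472), and Amot at 1000 uM and 24 h no longer did (limma adjusted p = 0.0513). No other change of Ccn1, Tgfbi, Axl or Smad7 crossed the threshold with the block.

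Of genes other than Ccn2, the poly-A scaling called 1 in place of 2 at 1000 uM and 24 h, against DMSO and against 60 uM, and 0 in place of 1 at 48 h for 60 uM against DMSO and for 1000 uM against 60 uM. A filter at the 60th percentile, which drops Ccn1, Smad7 and Axl, called 1 in each of these 24 h comparisons, 0 in those of 48 h and 0 for 1000 uM against DMSO at 48 h. Under that filter and under quantile normalization 1 gene, Tgfbi, passed for the 1000 uM difference of effects between times (limma adjusted p = 0.0498 and 0.0487). For 60 uM at 48 h the call of Ccn1 was lost with no filter, with array weights and with only the groups compared, which leaves 0 genes. With single arrays left out, the counts ran from 0 to 1 for 60 uM at 48 h, for 1000 uM against 60 uM at 48 h and for the 1000 uM difference of effects between times, and from 1 to 2 for 1000 uM against DMSO at 48 h. The cause of these losses was not tested, apart from the filter, which tests fewer genes.

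Signs turned only for changes that did not pass. Under poly-A scaling Axl was 0.0760 for 1000 uM against 60 uM at 48 h and 0.0606 for 60 uM at 24 h, and Tgfbi was 0.0104 for 1000 uM at 48 h and 0.0139 for 60 uM at 24 h. With single arrays left out, Axl ran from -0.118 to 0.0779 for 1000 uM against 60 uM at 48 h, from -0.0525 to 0.21 for 1000 uM at 48 h, from -0.14 to 0.0404 for 60 uM at 24 h and from -0.00144 to 0.20 for 60 uM at 48 h. Tgfbi ran from -0.0205 to 0.0570 for 1000 uM against 60 uM at 48 h, and Ccn1 from -0.17 to 0.0249 for the 60 uM difference of effects between times. Smad7 ran from -0.13 to 0.19 for 1000 uM against 60 uM at 24 h, from -0.0424 to 0.19 for 1000 uM at 24 h, from -0.11 to 0.22 for 60 uM at 24 h, from -0.70 to 0.31 for 60 uM at 48 h, from -0.75 to 0.27 for the 60 uM difference of effects between times and from -0.51 to 0.0310 for DMSO at 48 h against 24 h. The probe set of Smad7 of mean log2 6.05, tested with no filter, gave -0.74 and -0.00258 for 1000 uM against 60 uM at 24 h and 48 h, -1.17 for 1000 uM at 24 h, -0.43 and 0.15 for 60 uM at 24 h and 48 h, and 0.58 for the 60 uM difference of effects between times. The one of mean log2 7.35 gave -0.0465 and -0.00468 for 1000 uM at 24 h and 48 h and -0.18 for 60 uM at 24 h.

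Over all probe sets, the poly-A scaling gave 2091 calls in place of 3332 for 1000 uM against 60 uM at 24 h, 740 against 1686 for 60 uM at 48 h, 546 against 1544 for the 1000 uM difference of effects and 8 against 16 for that of 60 uM. The last count was 25 under quantile normalization and 25 with the runs as a block, 10 without the intensity trend and 9 without replicate 3 of 60 uM at 24 h. With only the groups compared, 758 probe sets in place of 1293 passed for DMSO at 48 h against 24 h.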
